A study of Homo sapiens with 2 samples.

Results

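The 10 genes IL6, IL11, LIF, EBI3, IL6ST, IL11RA, LIFR, OSMR, STAT3 and SOCS3 belong to the interleukin-6 (IL6) family and its shared signalling route, and were followed in MDA-MB 231 cells, a human breast cancer line that is invasive and lacks the estrogen receptor. They were chosen by name, with results of these arrays in view, and every probe set annotated to them was taken. They make up 10 of the 19775 genes that the arrays could read with a probe set assigned to 1 gene. The 2 samples were cells stably carrying the plasmid pIRES2-EGFP with the S100A7 gene inserted, and cells stably carrying pIRES2-EGFP alone as the vector control, so both groups carry the plasmid and its green fluorescent protein. The S100A7 gene encodes psoriasin, a small calcium-binding protein known from inflamed skin, and the series set out to find the genes it regulates. Each group was read on 1 Affymetrix array, and the labels do not say whether either stable line is 1 clone or a pool. There were thus no replicates, no test could be made, and the spread between cultures or between stable lines is unknown for every value given.

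Cytokines of the IL6 family signal through receptor complexes that share the chain gp130, encoded by IL6ST. A ligand-specific chain, such as the IL6 receptor or the IL11 receptor, brings the ligand to gp130, while LIF uses the LIF receptor and oncostatin M the oncostatin M receptor as a partner of gp130. Kinases of the JAK family bound to these chains phosphorylate STAT3, which enters the nucleus and switches on target genes, among them SOCS3, whose product shuts the receptor off again. In breast cancer, IL6, IL11 and STAT3 are known for their links to invasion and to spread to bone.

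The largest differences were those of EBI3 and IL11. EBI3, IL11 and IL6 were at least 2-fold higher in S100A7 cells than in vector cells, whereas the shared receptor IL6ST, the receptors OSMR and IL11RA and the ligand LIF lay within 1.5-fold. STAT3 was 1.60-fold higher. LIFR was 2.03-fold lower on its brightest probe set, but its probe sets disagreed. Thus 3 of the 10 genes were at least 2-fold higher, against 1.80% of the 12688 genes measured on the arrays, and 1 of the 10 was at least 2-fold lower, against 2.25%. EBI3, 1 of the 3, counted as measured through the S100A7 array only, so it could only come out higher. Because the genes were chosen with results of these arrays in view, these counts describe them and are not a test. In RNA from whole cultures, a change in every cell and a change in the share of cells making a transcript cannot be told apart.

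Values are intensities on the authors' linear scale, and a gene is represented by its brightest measured probe set. In place of a detection call, each array's 50th percentile (71.0 with vector, 69.0 with S100A7) served as a floor, and a probe set counted as measured when either array reached it. Any value under the floor was set to it before the log2 ratio of S100A7 over vector was taken, and the fold is then a lower bound. The 10 genes had 30 probe sets, of which 25 were measured and 5 (2 of IL6ST, 2 of LIFR and 1 of SOCS3) were below the floor on both arrays. All 10 genes had a measured probe set, EBI3 through the S100A7 array only, so a higher value of EBI3 followed from its being measured at all. Between measured probe sets of the same gene, log2 ratios had a pooled standard deviation of 0.36 over 6465 genes. This describes how well probe sets agree on these arrays and is not an error between cultures.

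**Figure D1:**
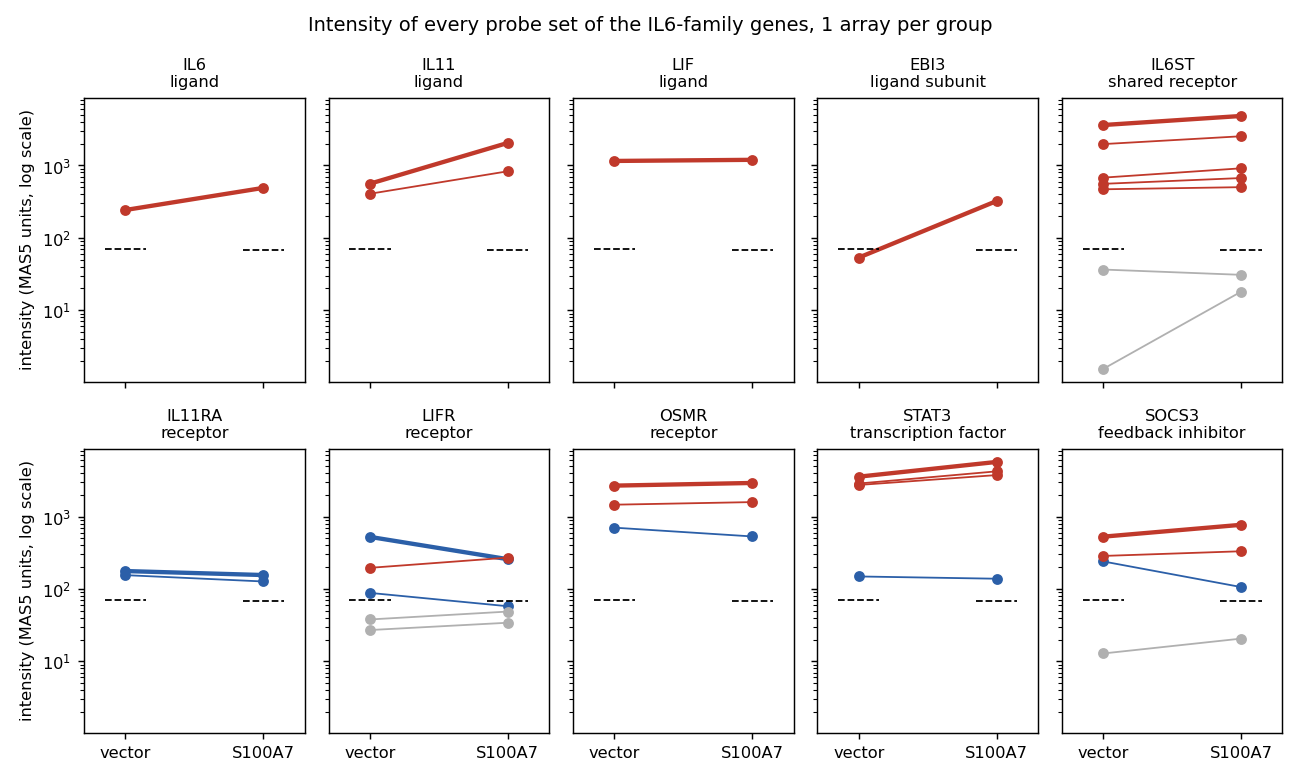
Intensity of every probe set of the 10 genes on the vector and S100A7 arrays, on a log scale. Each line joins 1 probe set's values (red when higher in S100A7 cells, blue when lower, grey when below the floor on both arrays), thick lines mark the brightest probe set, and dashed marks show the floors of 71.0 and 69.0. The lines of IL11, IL6 and EBI3 climb, the upper 5 of IL6ST climb slightly, and those of LIFR and SOCS3 go both ways.

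IL6, the founding ligand of the family and a driver of the acute-phase response, was read by a single probe set, 205207_at. It stood at 242.5 without and 490.2 with S100A7, both above the floor. The log2 ratio was 1.02, or 2.02-fold higher, which ranked 220 from the highest of the 12688 genes. This value lay just past the 2-fold threshold.

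IL11, a ligand known for its part in bone colonisation by breast cancer cells, was read by a pair of probe sets. The brighter, 206924_at, read 559.6 with vector alone and 2049 with S100A7, 3.66-fold higher, and the other, 206926_s_at, read 406.4 and 831.2, 2.05-fold higher. Both were therefore past 2-fold in the same direction, with log2 ratios of 1.87 and 1.03. Of the 6465 genes with at least 2 measured probe sets, 0.309% had all of them at least 2-fold higher. IL11 ranked 30 from the highest over all measured genes.

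EBI3, a soluble receptor-like subunit that pairs with the IL27 chain to form interleukin-27 and with the IL12A chain to form interleukin-35, had 1 probe set. It read 53.4 with vector alone, which is under the floor, and 322.9 with S100A7. The log2 ratio was at least 2.18, or at least 4.55-fold higher, so it has no exact place in the order of genes. The genes of both partner chains were low. IL27 read 16.4 and 5.92, below the floor on both arrays, and IL12A read 62.5 in the control and 92.0 with S100A7, a log2 ratio of at least 0.37.

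LIF, leukemia inhibitory factor, was the ligand whose value hardly differed. Its 1 probe set read 1155 without and 1197 with S100A7, a log2 ratio of 0.05. This ratio is far smaller than the standard deviation of 0.36 between probe sets of a gene, which is not an error between cultures.

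The stretches upstream of the transcription start of the 3 ligand genes that were at least 2-fold higher are shown because the genes shared a direction, so that their regulatory sequence can be read beside the values. Each runs 5′ to 3′ along the strand of the gene and ends at the base before the start site. They come from RefSeq on GRCh38.p14, which held a window for 9 of the 10 genes, all but LIF. IL6 lies at chr7:22726950-22727199 on the + strand, IL11 at chr19:55370464-55370713 on the - strand, and EBI3 at chr19:4229273-4229522 on the + strand. Capitals mark matches to 4 motifs searched on both strands: GGGANNTTC for NF-kB, TGANTCA for AP-1, TTGCNNAAT for C/EBP and TTCNNNGAA for STAT factors.
IL6: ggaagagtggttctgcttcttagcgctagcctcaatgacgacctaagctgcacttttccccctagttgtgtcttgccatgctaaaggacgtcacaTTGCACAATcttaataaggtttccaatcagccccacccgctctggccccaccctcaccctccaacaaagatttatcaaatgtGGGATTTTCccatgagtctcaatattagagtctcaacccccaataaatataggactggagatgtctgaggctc
IL11: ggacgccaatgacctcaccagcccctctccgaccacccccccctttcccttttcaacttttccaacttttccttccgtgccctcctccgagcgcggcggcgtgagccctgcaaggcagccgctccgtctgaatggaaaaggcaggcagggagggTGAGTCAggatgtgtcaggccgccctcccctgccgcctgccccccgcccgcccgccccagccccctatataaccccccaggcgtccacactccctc
EBI3: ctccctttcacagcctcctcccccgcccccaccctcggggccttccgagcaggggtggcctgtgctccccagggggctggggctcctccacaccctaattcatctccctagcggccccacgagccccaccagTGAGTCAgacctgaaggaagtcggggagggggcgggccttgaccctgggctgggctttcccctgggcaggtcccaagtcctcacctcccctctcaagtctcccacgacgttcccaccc

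In the IL6 stretch the capitals mark a C/EBP match, TTGCACAAT, starting 155 bases upstream of the start site, and an NF-kB match, GGGATTTTC, starting 73 bases upstream. IL11 and EBI3 each held 1 match, to the AP-1 motif, with the same letters TGAGTCA, starting 96 bases upstream in IL11 and 118 bases upstream in EBI3. No 2 matches overlapped in these windows. Among all 35116 windows of the same length, 3.52% held the NF-kB letters, 6.57% the AP-1 letters, 2.39% the C/EBP letters and 6.57% the STAT letters. Of the other genes, LIFR, with 3 alternative starts, held 1 C/EBP and 2 STAT matches, and the windows of IL6ST, IL11RA, OSMR, STAT3 and SOCS3 held 0 matches to these 4 motifs. A match is a string of letters in the window and does not show that a factor binds there.

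Among the receptors, IL6ST, the shared gp130 chain, was slightly higher on all of its measured probe sets. The brightest, 212195_at, read 3621 with vector alone and 4831 with S100A7, a log2 ratio of 0.42. The other 4 had log2 ratios of 0.10 to 0.43, so all 5 pointed the same way while staying well inside 2-fold. The 2 remaining probe sets were below the floor, at 1.54 to 36.5 in vector cells and 18.0 to 30.8 in S100A7 cells.

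IL11RA, the specific receptor chain for IL11, was not higher where its ligand was. Its probe sets read 176.6 and 155.1 in vector cells, against 155.6 and 126.8 in S100A7 cells. The log2 ratios were -0.18 and -0.29, both smaller in size than the standard deviation between probe sets. OSMR, the oncostatin M receptor, read 2676 in the control and 2912 with S100A7 on its brightest probe set, a log2 ratio of 0.12. Another OSMR probe set gave the same 0.12 and the third gave -0.40 (702.5 and 531.5).

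LIFR, the LIF receptor chain, gave the least clear reading. The brightest probe set, 225575_at, read 523.8 without and 257.8 with S100A7, a log2 ratio of -1.02. A second, 227771_at, went the other way, from 195.7 to 270.7, a log2 ratio of 0.47. The third measured one read 88.2 with vector alone and 57.7 with S100A7, the latter below the floor, for a log2 ratio of -0.35 as a bound. That probe set was measured through the vector array only, so it could only come out lower. The median over the 3 was this same bound of -0.35, and the 2-fold call for LIFR rested on 1 probe set.

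STAT3, the transcription factor that carries the signal to the nucleus, was higher on its 3 bright probe sets. They read 3558, 2861 and 2734 in vector cells and 5688, 4215 and 3743 in S100A7 cells, with log2 ratios of 0.68, 0.56 and 0.45. The fourth and dimmest read 148.7 and 138.4, a log2 ratio of -0.10. STAT3 was thus 1.60-fold higher, below the 2-fold threshold, and ranked 758 from the highest. At 1.5-fold, 4 of the 10 genes were higher (EBI3, IL11, IL6 and STAT3), against 8.12% of all measured genes, and 1 was lower (LIFR), against 10.0%.

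SOCS3, the feedback inhibitor that STAT3 induces, had probe sets in both directions. The brightest, 227697_at, read 527.5 in the control and 769.3 with S100A7, a log2 ratio of 0.54. The next, 206360_s_at, read 285.7 and 331.6, a log2 ratio of 0.22. The third, 206359_at, read 239.8 and 106.2, a log2 ratio of -1.18. Measured probe sets thus lay on both sides of 0 for SOCS3, LIFR, OSMR and STAT3, which is 4 of the 7 genes with at least 2 of them, against 43.1% of all such genes on the arrays.

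**Figure D2:**
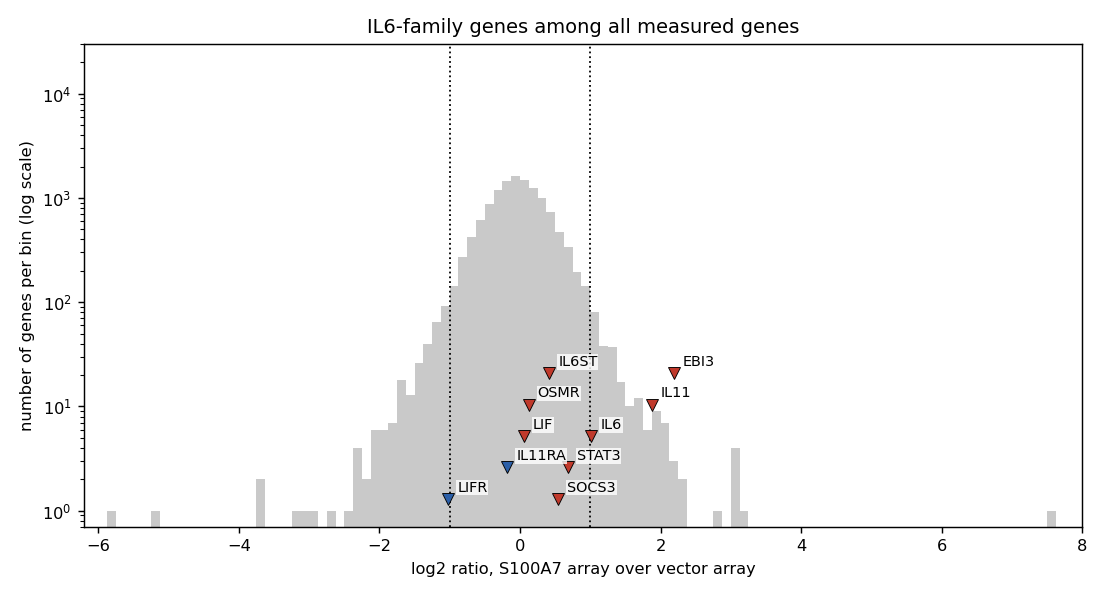
Histogram of the log2 ratio of S100A7 over vector for all 12688 measured genes, with the number of genes per bin on a log scale. Triangles mark the 10 genes of the IL6 family (their height has no meaning) and dotted lines mark 2-fold. EBI3 at 2.18, IL11 at 1.87 and IL6 at 1.02 lie right of the upper line, and LIFR at -1.02 lies just left of the lower one.

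Across the 10 genes the median log2 ratio was 0.48, and 0.42 over the 9 genes without EBI3, whose ratio is a bound. The median of all measured genes was -0.04. Above 0 were 8 of the 10, against 45.8% of all measured genes. The genes were proposed with results of these arrays in view, so these counts describe them and are not a test.

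Log2 ratios also varied along chromosomes, so each gene was set beside the median of the 40 measured genes nearest to it, 20 on each side. For STAT3 on chromosome 17 that median was 0.30, which left 0.37 of its own 0.68. For IL11 on chromosome 19 it was -0.22, for EBI3 on the same chromosome -0.08, and for IL6 on chromosome 7 -0.12, so the differences of these ligand genes from the genes around them were 2.09 for IL11, at least 2.26 for EBI3 and 1.13 for IL6. For the neighbours of LIFR the median was 0.01. IL11RA, at -0.18, matched its neighbours, whose median was -0.19.

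The remaining ligands and receptors of the family, with the proteases that shed the IL6 receptor, gave counts near those of genes at large. Of 14 genes listed 11 had a probe set of their own and 9 were measured, and 0 of the 9 were at least 2-fold higher or lower, where the shares over all measured genes were 1.80% and 2.25%. Their median log2 ratio was -0.03 (0.01 with median centring), beside -0.04 for all measured genes. IL12A and CNTF were measured through the S100A7 array only, so they could only be above 0. Without these 2 bounds the median was -0.15, beside -0.03 for all measured genes without bounds. IL6R, the specific receptor chain for IL6, was close to the floor, at 95.6 without and 82.2 with S100A7. OSM, the ligand of OSMR, was below the floor on both arrays, with its 2 probe sets between 3.29 and 6.03. Among other receptors, IL27RA, the chain for interleukin-27, read 326.1 and 406.4 (log2 ratio 0.32). CNTFR, the chain for ciliary neurotrophic factor, read 206.3 and 168.6 (-0.29). IL31RA, the chain for interleukin-31, read 282.0 and 229.8 (-0.30), although a dimmer probe set of it gave -1.24. The ligand genes CTF1 (cardiotrophin-1) and CNTF stayed near the floor, CTF1 at 95.6 and 86.4 and CNTF at 42.1 and 80.4. The sheddases ADAM10 and ADAM17 had log2 ratios of -0.03 and 0.22.

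In the machinery between receptor and nucleus, 16 of 18 listed genes for JAK kinases, other STAT factors and their inhibitors were measured. Of these 0 were at least 2-fold higher (1.80% of all measured genes) and 1 was at least 2-fold lower (2.25%), with a median of 0.10 beside -0.04 for all measured genes. The lower gene was SOCS2, a relative of SOCS3 best known for curbing growth hormone signalling. It read 287.5 with vector alone and 118.1 with S100A7, a log2 ratio of -1.28, while its other measured probe set gave a bound of -0.47. JAK2, a kinase of the pathway, was next at -0.70 (188.2 and 115.9), with a second probe set at -0.84 as a bound. CISH, another SOCS-family inhibitor, was also at -0.70 as a bound (111.9 and 16.2), but a second probe set of it gave a bound of 0.49 in the other direction. The negative bounds of SOCS2, JAK2 and CISH came from probe sets measured through the vector array only, which could only come out lower. The 0.49 of CISH came through the S100A7 array only and could only come out higher. The highest were SOCS1 at 0.46 as a bound, STAT4 at 0.42 and the phosphatase gene PTPN2 at 0.37. STAT4 was near the floor (96.3 and 128.4), and the probe sets of PTPN2 ran from -0.17 to 0.53. SOCS1 read 49.4 in the control, under the floor, and 97.6 with S100A7, so this probe set could only come out higher. Another of its probe sets gave a bound of -0.44 and could only come out lower. JAK1, the main gp130-bound kinase, read 2556 and 2804, a log2 ratio of 0.13.

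Genes known as targets of STAT3 were split around 0 much as all measured genes were, but a larger share lay past 1.5-fold. Of 28 listed, 26 had a probe set of their own and 18 were measured, of which 8 were above 0 and 10 below, where 45.8% of all measured genes were above 0. Their median was -0.10, beside -0.04 for all measured genes. Without bounds the medians were -0.03 and -0.03. At 1.5-fold, 4 of the 18 were higher and 3 lower, against 8.12% and 10.0% of all measured genes. FOS, 1 of the 3 lower, was measured through the vector array only, so it could only come out lower. The same held for the brightest probe set of MUC1, 1 of the 10 below 0. The 1 gene of the 18 at least 2-fold higher, against 1.80% of all measured genes, was CEBPD, a transcription factor of the acute-phase response, which read 802.9 without and 2053 with S100A7 (2.56-fold higher). The other CEBPD probe set was below the floor on both arrays (2.73 and 31.3). HIF1A, the oxygen-regulated transcription factor, read 4713 and 9120 (log2 ratio 0.95). TNFRSF1A, a tumour necrosis factor receptor, read 1455 and 2708 (0.90), and HAMP, the iron hormone hepcidin, read 86.5 and 147.2 (0.77). At the other end were FOS, an AP-1 subunit, at -0.89 as a bound (127.9 and 44.6) and BCL2L1, a survival factor, at -0.66 (6506 and 4113). TIMP1, a protease inhibitor, stood at -0.65 (4245 and 2713) and MYC, a growth regulator, at -0.44 (8999 and 6623). The acute-phase genes SERPINA3, LBP, HP, CRP, FGA, FGB and FGG, and the transcription factor gene TWIST1, were below the floor on both arrays.

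Probe sets that the annotation assigns to several genes were kept out of these counts, and those carrying SAA1, an acute-phase gene on the target list, differed far more. Serum amyloid A is a secreted protein made in bulk by the liver under IL6 and interleukin-1. The probe set listed jointly for SAA1, SAA2 and the read-through SAA2-SAA4, 208607_s_at, read 544.4 with vector alone and 7466 with S100A7, 13.7-fold higher. The one listed for SAA1 and SAA2, 214456_x_at, read 1887 and 22132, 11.7-fold higher. They ranked 1 and 2 from the highest among the 1174 measured probe sets listing several genes, and which of the SAA genes they read cannot be told apart. BCL3, another target on the list, shares its probe sets with a microRNA gene, and they had log2 ratios of -0.66 and 0.00.

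**Figure D3:**
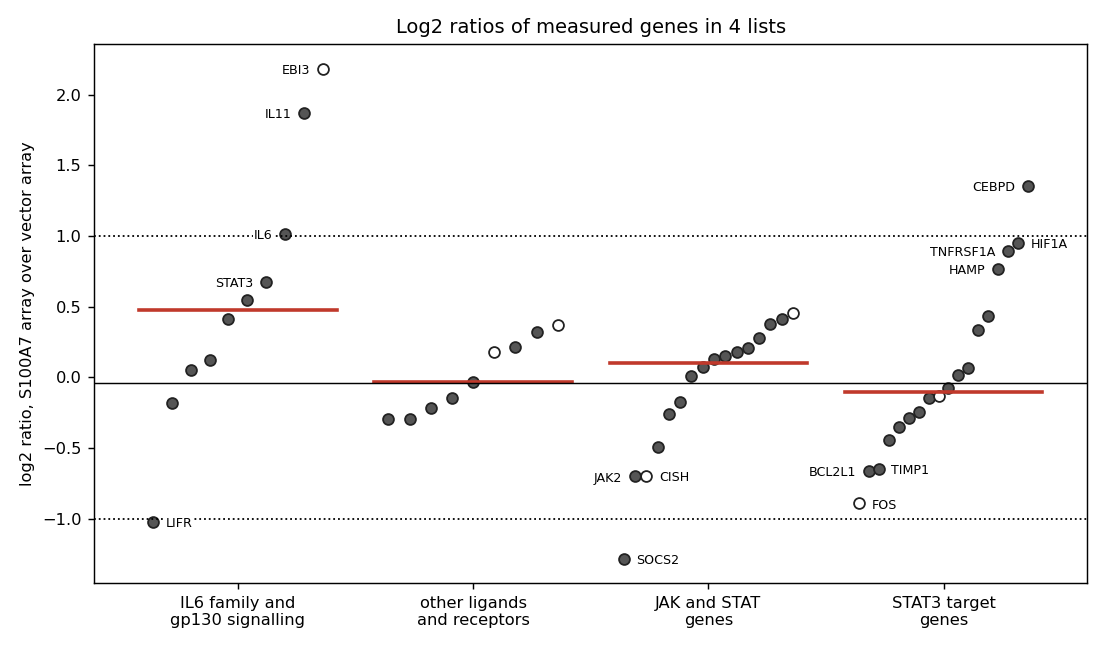
Log2 ratio of S100A7 over vector for each measured gene of the IL6 family (10), the other ligands and receptors (9), the JAK and STAT genes (16) and the STAT3 target genes (18). Open circles are bounds, red bars are list medians (0.48, -0.03, 0.10 and -0.10), the thin line is the median of all measured genes (-0.04) and dotted lines mark 2-fold. EBI3, IL11, IL6 and CEBPD lie above the upper dotted line, and SOCS2 and LIFR below the lower one.

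With 2 arrays, likeness between genes comes down to having similar intensities on both. Among 31 genes whose measured probe sets, at least 2 of them, were all at least 2-fold apart in 1 direction, those nearest IL11 in log2 intensity on the 2 arrays were MYLK, ICAM1 and TBC1D12. MYLK, myosin light chain kinase, read 684.2 and 2238 at a distance of 0.32 log2 units. ICAM1, an adhesion molecule, read 587.4 and 1350 at a distance of 0.61, and TBC1D12 read 1001 and 2927 at a distance of 0.98. Such closeness sets intensities of different probe sets side by side and is a description only.

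How far the readings depend on processing was examined with 8 other settings and with the subtraction of chromosomal neighbours. IL11 was at least 2-fold higher under all 9, with log2 ratios of 1.45 to 2.09. EBI3 was so under 8, and with the floor at the 70th percentile its bound shrank to 0.19, because the vector value was then raised much further. IL6 was so under 6, at 1.00 with quantile normalization (just short of 2-fold), 0.93 with a pseudocount and 0.79 with the floor at the 70th percentile. LIFR was at least 2-fold lower under 5, and with the median over probe sets it was at -0.35, which is a bound. LIF, IL6ST, OSMR, STAT3 and SOCS3 stayed above 0 and within 2-fold under all 9. IL11RA, not measured with the floor at the 70th percentile, was below 0 under 7 of the other 8 and at 0.01 after subtraction of its neighbours.

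**Figure D4:**
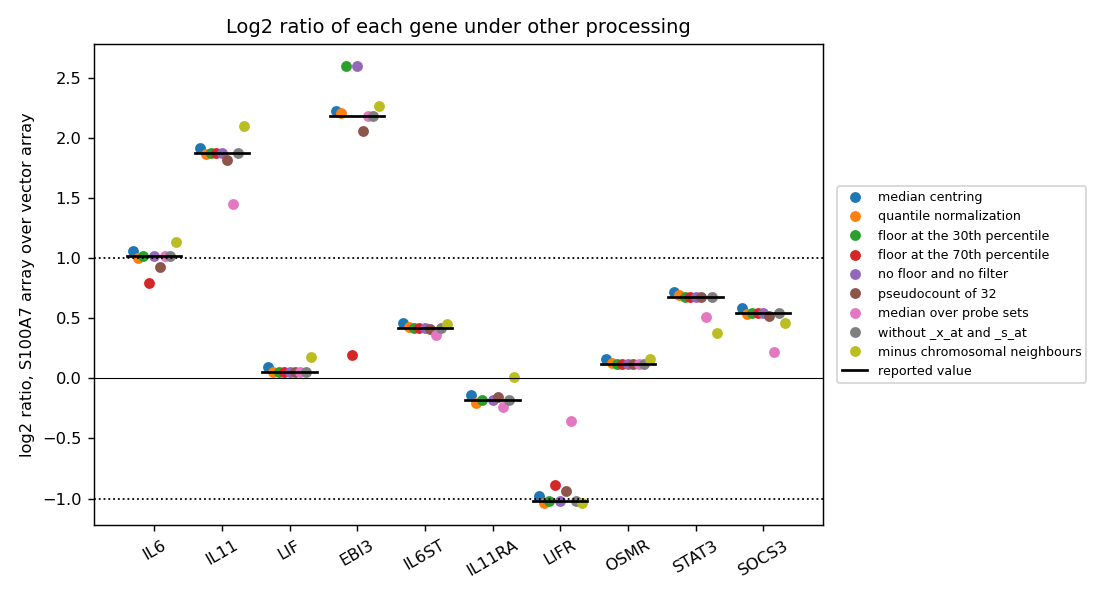
Log2 ratio of S100A7 over vector for each of the 10 genes as reported (black bar) and under 9 other ways of processing (coloured points), with dotted lines at 2-fold. IL11 stays between 1.45 and 2.09, EBI3 has 1 low point at 0.19, and IL6 sits on the upper dotted line. LIFR has 1 point at -0.35, which is a bound.

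The record of the S100A7 sample names the cell line but also holds a line about early embryos, which does not describe cultured cells and was not used. The probe set for S100A7 itself was at 11.99 with vector alone, which is under the floor, and 13232 with S100A7. All 6 mesenchymal and basal markers of the line were measured, with vimentin (VIM) at 38087 and 35575, and the probe sets of ESR1, PGR and CDH1 were below the floor on both arrays. EPCAM (544.4 and 513.0) and ERBB2 (497.2 and 539.8), listed as low or absent in this line, were above it. Among markers of other cell types, 1 of 6 leukocyte genes was measured, CD79A at 315.0 and 201.8, with PTPRC, CD3E, CD14, LYZ and TYROBP below the floor. The summed intensity of the 6, mostly that of CD79A, was 424.1 with vector alone and 356.9 with S100A7. For fibroblasts and endothelium 5 of 8 were measured, with a summed intensity of 1222 and 1003, and DCN, LUM and VWF were below the floor. COL1A1 was lower in S100A7 cells (842.4 and 487.3). The other 4 were higher: COL1A2 (58.8 and 89.4), PDGFRB (65.4 and 116.6), PECAM1 (132.0 and 168.2) and CDH5 (24.8 and 79.0). Of these, COL1A2, PDGFRB and CDH5 read under the floor in vector cells, so the probe sets shown could only come out higher. The part of such markers in the values of the ligand genes was not tested.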

How the data were processed

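Total RNA of both samples was labelled with biotin and hybridised to Affymetrix arrays, per the labels' protocols. The authors deposited linear intensities, 1 for each probe set, computed with MAS5 according to the submitters' processing notes. Its version and scaling target, like any detection call, were not given in the sources used here. With 2% trimmed from either end, the 54675 intensities of each array averaged 500.1, and they were used without further scaling. Probe sets were named through the platform annotation, with 41091 assigned to 1 gene, 1801 to several and 11721 to none listed. Of the first, 41037 were matched by Entrez identifier to current symbols on GRCh38.p14. Log2 ratios, floors and counts were computed over the whole table with Python 3.11.15, numpy 2.4.6 and pandas 2.3.3, and the steps were tested on simulated data. The number of arrays, 1 per group, limits the precision, and no test was made.

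The genes and lists were chosen with earlier results of these data known. Named were all 10 genes, the measured other ligands and receptors, the 3 highest and 3 lowest JAK and STAT genes, the 4 highest and 4 lowest STAT3 targets, every listed gene past 2-fold, and the 3 genes nearest IL11. JAK1, OSM, IL27 and the probe sets listing several genes were named after their values were seen. Some listed genes are not reported here.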

Additional observations from a re-analysis of the deposited data

How the results depend on the processing

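Directions and sizes for 2 arrays cannot be checked by leaving out a sample. No paired analysis was possible because each group has 1 array and no test was made. The median log2 ratio of the 10 genes lay between 0.29 and 0.52 under every setting tried, and 0 values past 2-fold changed sign. The numbers of genes past the threshold are small and moved as follows, and apart from the settings' own construction (another floor, another threshold, fewer probe sets) the cause was not tested. With the floor at the 70th percentile, 1 gene of the family (IL11) was higher and 0 were lower, and 0 JAK and STAT genes were lower. With median centring, with a pseudocount of 32, with the median over probe sets and with a 3-fold threshold, 0 genes of the family were lower. Of 16 JAK and STAT genes, 2 were lower with the pseudocount, 0 with the median over probe sets, 3 at 1.5-fold and 0 at 3-fold. CISH was among the 2 and the 3, on a probe set that could only come out lower. STAT3 targets that were higher numbered 2 of 26 with no floor and 0 of 13 without probe sets ending in _x_at or _s_at. Of 18, they numbered 4 at 1.5-fold and 0 at 3-fold. STAT3 targets that were lower numbered 2 of 22 with the floor at the 30th percentile and 4 of 26 with no floor. Of 18, they numbered 1 with the pseudocount and 3 at 1.5-fold, and FOS, which could only come out lower, was counted in both. Of the other ligands and receptors, 1 (IL27) was lower with no floor. Over all 12688 measured genes, 228 were higher and 286 lower as reported. With the floor at the 30th percentile they were 679 and 979 of 16769. With it at the 70th they were 99 and 88 of 8976, and with none 1911 and 2387 of 19775. With median centring 267 of 12688 were higher and 247 lower. On the same 12688 genes the pseudocount gave 331 and 425, and the median over probe sets 173 and 230. The 1.5-fold threshold gave 1030 and 1275, and the 3-fold threshold 47 and 55. Without probe sets ending in _x_at or _s_at, 228 and 227 of 9940 were higher and lower. Subtracting chromosomal neighbours was chosen after seeing the data. Readings near the floor, EBI3 in vector cells among them, carry little signal over background.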
